A study of Caenorhabditis elegans with 3 samples.

Results

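Homeobox genes of the ceh series and basic helix-loop-helix (bHLH) genes of the hlh series were followed in adult Caenorhabditis elegans hermaphrodites. Members were all genes with a probe of exactly 1 gene whose platform symbol was ceh or hlh with a number, ceh-13 apart. This gave 75 genes, 54 ceh and 21 hlh, of 15168 genes with such a probe. The rule reads symbols and no measured value. All 75 had a value on every array and entered the fit, as did 15090 of the 15168. Each of them had 1 probe except ceh-91, which had 2.

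The study hybridised RNA of adult hermaphrodites, labelled TP11 and read as carrying embryos, against RNA of a wild-type mixed reference on 2-colour arrays. Preps 1, 2 and 3 were each put on 1 array, and these 3 arrays form 1 group. The labels name no strain, age or treatment for the adults, and do not say which stages the reference mixed or whether the preps were separate cultures. P-values therefore rest on the scatter among 3 samples that may be technical replicates. RNA came from whole animals, so fewer cells of a type and less RNA per cell cannot be told apart in any of the values below.

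Homeobox proteins bind DNA through the homeodomain, a helical domain that gives each class its sequence preference, and in the worm they are best known as selectors of neuron, epidermal, muscle and gonadal cell identity. The classes described here carry a second conserved region (the POU, LIM, PBC and cut domains) or are named for fly relatives (sine oculis, NK, BarH, paired). Proteins of the bHLH family bind E-box DNA as dimers. HLH-2, the worm relative of Daughterless and the mammalian E proteins, is the common partner of tissue-restricted members such as the achaete-scute type factors, while other members dimerise among themselves. Many genes of both families act in a few cells or for a short time in the embryo, and few are known as abundant transcripts of the adult.

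A ratio is given as log2 of adult over reference after each array was centred on its median, so 0 is the typical probe. Since the labels list the reference as channel 1 and the adults as channel 2 without naming dyes, positive was read as higher in the adults, a likely direction that is not settled. With the sign turned, every higher and lower below, and every rank by mean, would be exchanged. Among markers of what the labelled animals should hold, 9 of 13 oocyte, eggshell and yolk genes were higher and 0 were lower, with a list mean of 1.30 ± 0.38 (SD, n = 3). Of 7 zygotic genes of the early embryo, 0 were higher and 1 was lower (list mean -0.12 ± 0.26). Of 7 genes of neuronal vesicle release and neuropeptide processing, 6 were lower (-1.35 ± 0.18). In the same direction, 3 of 5 sperm genes, 2 of 3 pharyngeal muscle genes and 1 of 4 intestinal genes passed, and 0 of 4 body wall muscle genes. Ratios spread most widely on prep 1, with a robust SD of 0.773 over all probes against 0.484 on prep 2 and 0.370 on prep 3. The members followed the same order, at 0.544, 0.379 and 0.229. Spot intensities were not used here, so it is not known which members' spots stood above background, and the number of arrays limits the precision.

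Few ceh or hlh genes passed the threshold for a difference between the adults and the reference, and most of the members' spot ratios were small. A spot near background gives a small ratio whatever the RNA levels, so small ratios need not mean small RNA differences. In limma at an adjusted p of 0.05, 4 of the 54 ceh genes were higher in the adults, 5 were lower, and the other 45 did not reach the threshold. Of the 21 hlh genes, 2 were higher and 1 was lower, which leaves 18. That is 16.7% of the ceh and 14.3% of the hlh genes past the threshold, beside 33.9% of all genes tested (16.0% higher and 17.9% lower) and 32.0% of all probes (15.8% higher and 16.2% lower). Only ceh-18 and hlh-11, both lower, differed by 2-fold or more, which is 2.67% of the members against 13.3% of all genes. No test of a list was made, so these shares are descriptions.

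The ratios of both families lay closer to 0 than those of all genes. Without regard to sign, the median log2 ratio was 0.20 for ceh genes and 0.23 for hlh genes, against 0.33 for all genes. With sign, the median was 0.03 for ceh, -0.06 for hlh and -0.02 for all genes. The middle 50% of ceh genes ran from -0.20 to 0.18, that of hlh genes from -0.23 to 0.09 and that of all genes from -0.36 to 0.30. A member's SD over the preps had a median of 0.23 in ceh and 0.21 in hlh genes, against 0.28 over all genes. The sign was the same on all 3 arrays for 25 ceh genes (46.3%) and 9 hlh genes (42.9%), against 62.2% of all genes.

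**Figure D1:**
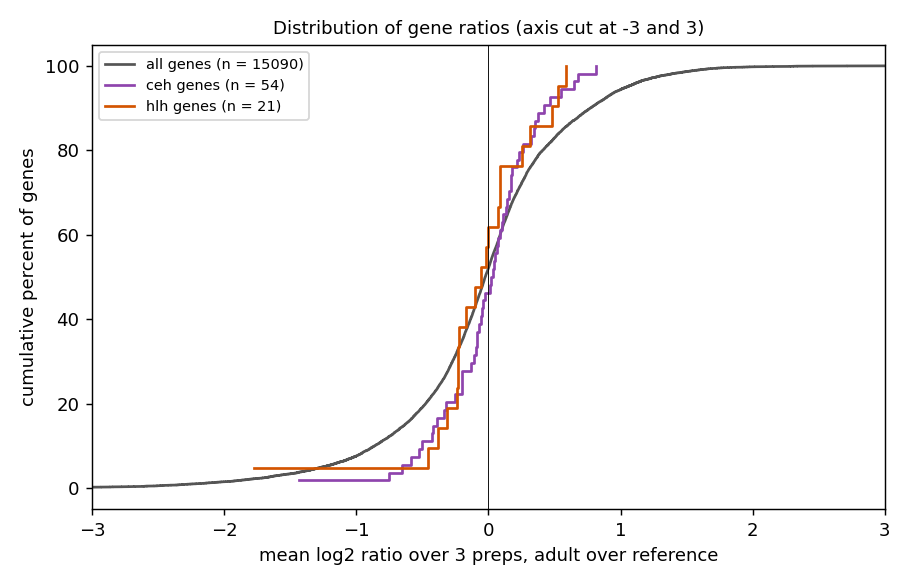
Cumulative percent of genes (vertical axis) at or below each mean log2 ratio of adult over reference (horizontal axis, drawn from -3 to 3) for 54 ceh genes, 21 hlh genes and 15090 genes in all. The curves of both families rise more steeply around 0 than that of all genes, with the middle 50% from -0.20 to 0.18 and from -0.23 to 0.09.

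Between the families the difference was small against the range within each. The mean ratio of ceh genes was -0.08 on prep 1, -0.0047 on prep 2 and 0.04 on prep 3, which averages -0.01 ± 0.06 (SD, n = 3). The mean of hlh genes was -0.17, -0.07 and -0.02 on the same preps, or -0.09 ± 0.08. Over all genes it was -0.025, -0.125 and -0.0086 (-0.05 ± 0.06). The ceh mean lay below that of all genes on prep 1 and above it on preps 2 and 3. The hlh mean lay above it on prep 2 and below it on preps 1 and 3. The hlh mean lay below the ceh mean on each array, by 0.10, 0.06 and 0.05 (hlh minus ceh, -0.07 ± 0.02). Between family medians the same difference was -0.14, -0.07 and 0.03, so its sign was not shared by the arrays. Without hlh-11, left out after its values were seen, the difference of the means was -0.03, 0.04 and 0.02 on preps 1, 2 and 3 (0.01 ± 0.04), and without both hlh-11 and ceh-18 it averaged -0.01 ± 0.04. The order of the family means thus rested on hlh-11. Members ran from -1.44 to 0.82 among ceh genes and from -1.78 to 0.59 among hlh genes. The sign of the ceh mean also depended on the setting: it was 0.01 without centring and 0.02 without prep 1.

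**Figure D2:**
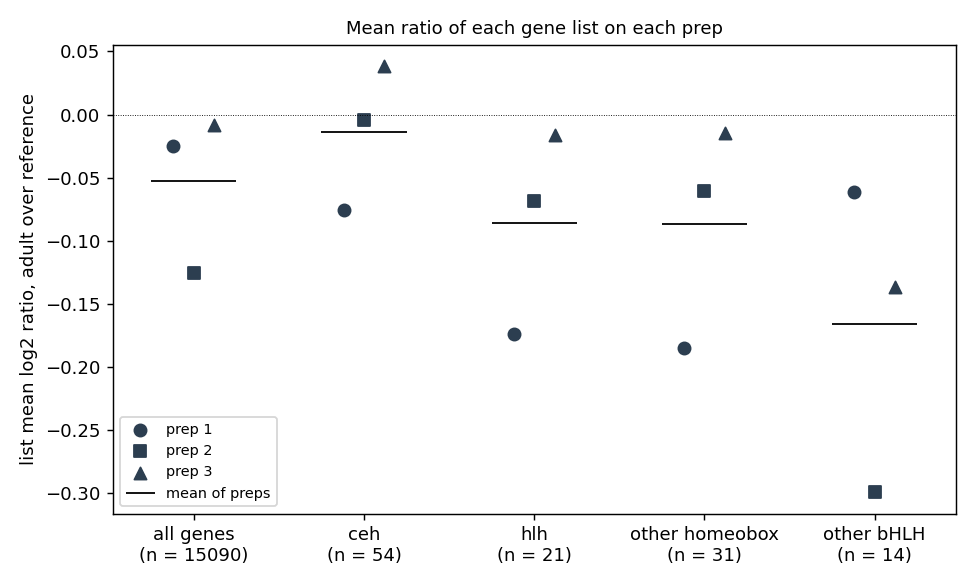
Mean log2 ratio of adult over reference (vertical axis) of each gene list on preps 1, 2 and 3 (points), with the mean over preps as a line. The hlh point lies below the ceh point on each prep, by 0.10, 0.06 and 0.05, and prep 1 is the lowest point of both; without hlh-11 the hlh mean lies above the ceh mean on preps 2 and 3.

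**Figure D3:**
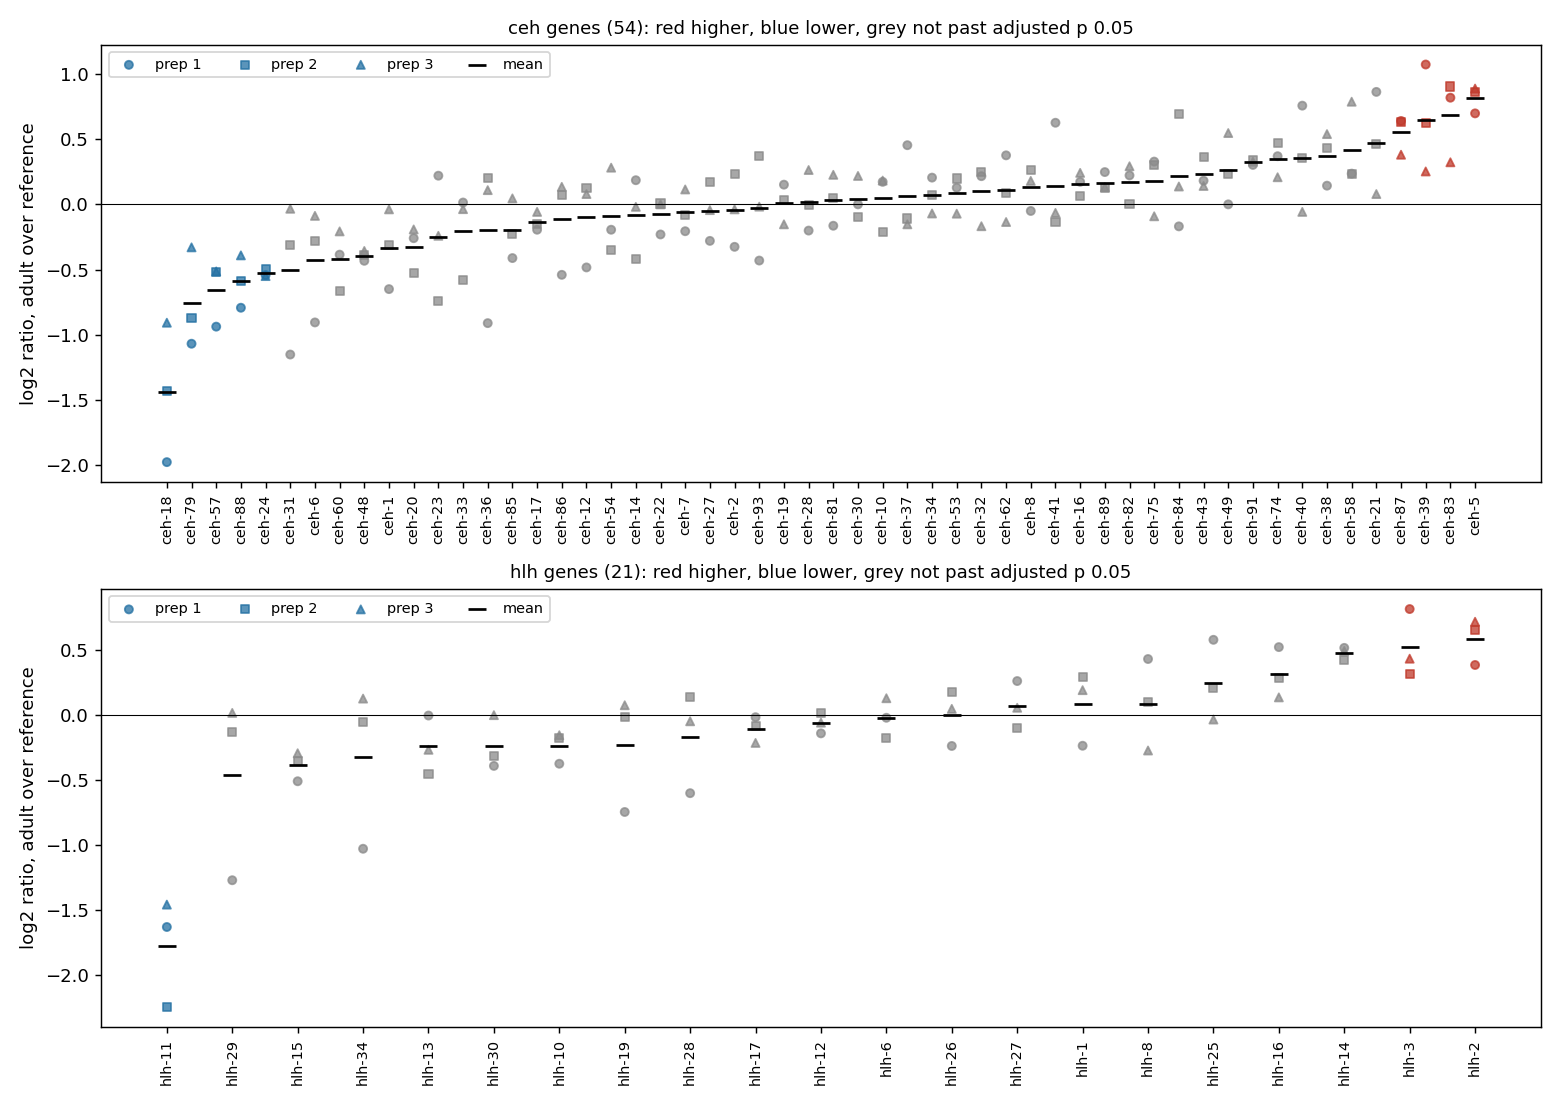
Log2 ratio of adult over reference (vertical axis) of each of the 54 ceh and 21 hlh genes, ordered by mean, with 1 point for each of preps 1, 2 and 3 and a bar for the mean. The ratios of ceh-18 and hlh-11 lie apart at the low end of their families, at -1.44 and -1.78, while most genes have points on both sides of 0.

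The ceh genes higher in the adults were ceh-5, ceh-83, ceh-39 and ceh-87, at 1.47-fold to 1.76-fold. For ceh-5 the log2 ratio was 0.70, 0.86 and 0.89 on preps 1, 2 and 3, a mean of 0.82 ± 0.10 (SD, n = 3, adjusted p = 0.00403 in limma). Its preps lay close together, and the call stood with any prep left out. Each fit with a prep left out, here and below, rests on 2 arrays. The ratios of ceh-83 were 0.82, 0.90 and 0.32, with a mean of 0.68 ± 0.31 (adjusted p = 0.0161), prep 3 being the low one. Without prep 2 its call was lost (0.57, adjusted p = 0.121).

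The ONECUT gene ceh-39, which is known as an X-chromosome signal that represses xol-1 in sex determination, had ratios of 1.07, 0.63 and 0.25 (mean 0.65 ± 0.41, adjusted p = 0.0262). Its values spread widely by prep. Leaving out prep 1 (0.44, adjusted p = 0.0938) or prep 2 (0.66, adjusted p = 0.071) ended the call. At 0.64, 0.63 and 0.38, ceh-87 averaged 0.55 ± 0.15 (adjusted p = 0.0307). Leaving out any of preps 1, 2 and 3 ended that call (adjusted p = 0.051, 0.169 and 0.0887), with means of 0.51, 0.51 and 0.64.

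The ceh genes lower in the adults were ceh-18, ceh-79, ceh-57, ceh-88 and ceh-24. The POU gene ceh-18, which acts in the gonadal sheath cells that surround the oocytes and helps to hold oocytes in meiotic arrest, had ratios of -1.98, -1.43 and -0.91 on preps 1, 2 and 3. Every prep was low, though prep 1 was more than 1 log2 unit below prep 3. The mean was -1.44 ± 0.53 (SD, n = 3), 2.71-fold lower in the adults, with an adjusted p of 0.000582, and 3.72% of all genes had a lower mean. With the sign turned it would be the highest ceh gene and higher in the adults. The LIM homeobox gene lim-7, also expressed in the gonadal sheath and named here after its values were seen, stood at -0.18, 0.09 and -0.08 (mean -0.06 ± 0.14, adjusted p = 0.847). A single gene does not measure sheath content, which was not tested.

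The other lower ceh genes differed by 1.44-fold to 1.69-fold. For ceh-79 the ratios were -1.07, -0.87 and -0.33 (mean -0.76 ± 0.38, adjusted p = 0.0118), and the call was lost without prep 2 (-0.70, adjusted p = 0.0537). For ceh-57 they were -0.94, -0.52 and -0.51 (mean -0.66 ± 0.24, adjusted p = 0.0163), and the call stood with any prep left out. Values of -0.79, -0.58 and -0.39 gave ceh-88 a mean of -0.59 ± 0.20 (adjusted p = 0.0246). Prep 1 was the low array for all 3 of these genes.

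The call of ceh-88 was lost without any of preps 1, 2 and 3 (adjusted p = 0.0556, 0.103 and 0.0607; means -0.49, -0.59 and -0.69). The NK-2 gene ceh-24, known from vulval muscle and a pharyngeal muscle, had the tightest values of the members past the threshold, at -0.54, -0.49 and -0.55 (mean -0.53 ± 0.03, adjusted p = 0.0333). Its mean held without prep 2 (-0.55) or prep 3 (-0.52), but the call was lost in these fits of 2 arrays (adjusted p = 0.134 and 0.19). Nearest to the threshold among the other ceh genes were ceh-91 (mean of 2 probes 0.32, adjusted p = 0.0865 and 0.413), ceh-21 (0.47 ± 0.39, adjusted p = 0.0932) and ceh-60 (-0.42 ± 0.23, adjusted p = 0.1). The probes of ceh-91 differed, at 0.65, 0.36 and 0.28 against -0.05, 0.32 and 0.37, so the small SD of their average (0.02) overstates its precision. After quantile normalization ceh-91 passed (adjusted p = 0.0409).

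Among hlh genes the largest difference was that of hlh-11, a relative of the mammalian AP-4 factor, which was 3.43-fold lower in the adults. Its ratios were -1.63, -2.24 and -1.46 on preps 1, 2 and 3, each below every other hlh value on these arrays. The mean was -1.78 ± 0.41 (SD, n = 3, adjusted p = 0.000102 in limma), the lowest of all 75 members (the highest if the sign is turned), and 2.2% of all genes had a lower mean. This call stood with any prep left out.

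The E protein gene hlh-2 was higher, at 0.39, 0.66 and 0.72 (mean 0.59 ± 0.18, adjusted p = 0.0237), with prep 1 as the low one. With prep 2 (0.55, adjusted p = 0.13) or prep 3 (0.52, adjusted p = 0.186) left out it did not pass. The achaete-scute type gene hlh-3, which acts in the differentiation of the egg-laying HSN neurons, had ratios of 0.82, 0.32 and 0.44 (mean 0.52 ± 0.26, adjusted p = 0.0459).

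Prep 1 was the high array for hlh-3, and its call was lost without preps 1, 2 or 3 in turn (adjusted p = 0.121, 0.0804 and 0.14; means 0.38, 0.63 and 0.57). A second achaete-scute type gene, hlh-14, which acts in an embryonic lineage that also makes HSN, stood just outside the threshold at 0.52, 0.43 and 0.50 (mean 0.48 ± 0.05, adjusted p = 0.05003). Its preps lay close together, and it passed without centring, after scaling or quantile normalization, with 1 row per gene and with a trended, robust variance (adjusted p from 0.0209 to 0.0492). The third measured gene of this type, hlh-6, a pharyngeal gland factor, stood at -0.02 ± 0.15. Next nearest to the threshold were hlh-15 (-0.38 ± 0.11, adjusted p = 0.117) and hlh-29 (-0.46 ± 0.71, adjusted p = 0.184).

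Counts of members past the threshold moved with the prep left out. Of the ceh genes, 6, 3 and 7 passed without preps 1, 2 and 3, and of the hlh genes 2, 1 and 1. Calls also fell over all probes, to 5320, 5017 and 5368 in the same fits, against 6302 with all preps. Of the 12 members past the threshold, 4 kept their call in every alternative tried, ceh-5, ceh-18, ceh-57 and hlh-11. A gene that joined was ceh-31, which at -1.15, -0.31 and -0.03 on preps 1, 2 and 3 passed without prep 3 (-0.73, adjusted p = 0.0427).

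For the members that did not pass, the fit also gave intervals of the spot ratio. Of the 63, 62 had a single probe and so an interval from the fit, and all 62 of these 95% intervals lay within 2-fold in either direction. Their half-widths ran from 0.372 to 0.533 on the log2 scale. These intervals are not adjusted for the number of probes, and the farthest reached -0.99 (hlh-29 and ceh-31). They bound the ratio of the spots, and a spot near background would give a ratio near 0 whatever the RNA levels. Missing the threshold does not show that a gene was at the same level in both samples. The count of intervals within 2-fold is not a result about the members. Genes that missed the threshold have small means by that selection, and the share among all such genes was not computed.

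The class counts below stand beside 16.7% of ceh, 14.3% of hlh and 33.9% of all genes past the threshold. No class was tested as a set, and differences between classes were not tested. Of 6 measured ONECUT genes (cut domain with a homeodomain), 1 was higher and 5 did not pass. A mean above 0 was found in 29 of 54 ceh genes, in 7236 of 15090 genes in all, and in 5 of the ONECUT genes (class mean 0.25 ± 0.11). Besides ceh-39 and ceh-21 these were ceh-38 (0.37 ± 0.21), ceh-49 (0.26 ± 0.27) and ceh-41 (0.14 ± 0.42). The exception was ceh-48, a gene of the nervous system, at -0.43, -0.39 and -0.36 (mean -0.39 ± 0.04, adjusted p = 0.104). The other POU gene, ceh-6, which acts in the excretory cell and in neurons, stood at -0.91, -0.28 and -0.09 (mean -0.42 ± 0.43, adjusted p = 0.135).

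The PBC genes, whose proteins are partners of Hox and Meis-type factors, gave 0 calls among 3. The ratios of ceh-60, a gene known to act with unc-62 in the control of yolk protein genes, were -0.39, -0.66 and -0.21, all below 0. Those of ceh-20 were -0.26, -0.52 and -0.19 (mean -0.33 ± 0.18, adjusted p = 0.192), and those of ceh-40 were 0.76, 0.36 and -0.06 (mean 0.35 ± 0.41, adjusted p = 0.210). So ceh-20 and ceh-60 were below 0 on all arrays, while the values of ceh-40 fell on both sides.

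Of the 5 measured NK genes, ceh-24 was lower and 4 did not pass. The pharyngeal muscle gene ceh-22, which also acts in the distal tip cells of the gonad, stood at -0.07 ± 0.14, and ceh-27 and ceh-28 at -0.05 ± 0.22 and 0.02 ± 0.23. The gene ceh-1 stood at -0.33 ± 0.31. All 7 paired-like genes, several of them selectors of single sensory or interneuron types, lay between -0.20 (ceh-36) and 0.13 (ceh-8), and 0 passed. The same held for the 3 sine oculis type genes, from -0.20 (ceh-33) to 0.10 (ceh-32), for the LIM gene ceh-14 (-0.08 ± 0.31), and for ceh-2, ceh-12, ceh-16 and ceh-43, from -0.09 to 0.23. The last 2 of these are the engrailed gene of the seam cells and the Distal-less gene.

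Of 21 ceh genes placed in no class here, 3 were higher and 3 lower. Each of these 6 has been named above, and no role is given for them. The 15 others lay between -0.25 (ceh-23) and 0.42 (ceh-58). In several of the ceh genes the 3 preps scattered widely, as in ceh-36 at -0.91, 0.20 and 0.11.

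**Figure D4:**
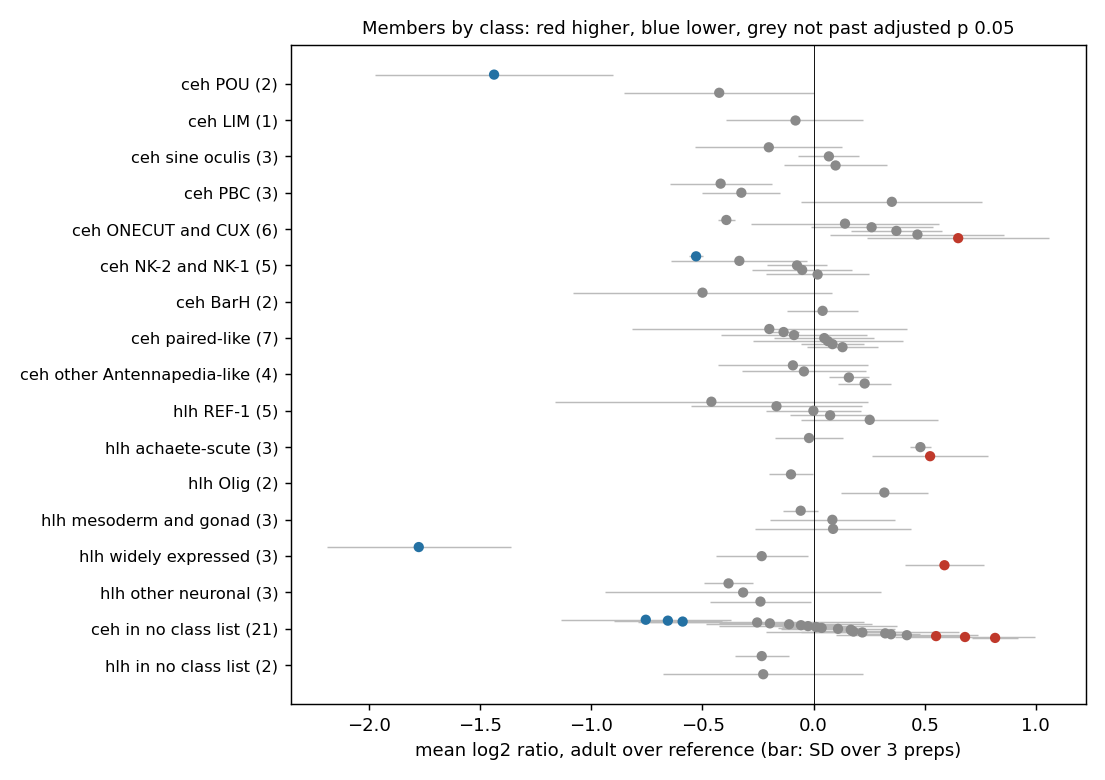
Mean log2 ratio of adult over reference (horizontal axis) of each member, grouped by class with the number measured in brackets. Bars are the SD over 3 preps, and colours give calls at an adjusted p of 0.05 in limma. Of the 6 ONECUT genes 5 lie above 0, beside 29 of all 54 ceh genes, and the 7 paired-like genes lie between -0.20 and 0.13.

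In the hlh series the REF-1 genes, which encode proteins with paired bHLH domains and include targets of Notch signalling in the early embryo, gave 0 calls among 5. Their means ran from -0.46 for hlh-29 to 0.25 for hlh-25, and none had the same sign on all 3 arrays. The ratios of hlh-29 were -1.27, -0.13 and 0.02, so its mean came mostly from prep 1. Prep 1 was also the low array of hlh-28 (-0.60, 0.14 and -0.05) and the high one of hlh-25 (0.58, 0.21 and -0.03). Members of this family resemble each other closely, and probes may bind more than the named gene, so single values are uncertain.

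The 3 hlh genes listed for mesoderm and gonad did not pass. The MyoD relative hlh-1 stood at -0.23, 0.29 and 0.19 (mean 0.08 ± 0.28), the Twist relative hlh-8 at 0.43, 0.10 and -0.27 (0.09 ± 0.35), and hlh-12, which acts in distal tip cell migration, at -0.14, 0.02 and -0.06 (-0.06 ± 0.08). Their means were all within 0.1 of 0. The TFEB relative hlh-30, a regulator of lysosome and autophagy genes, stood at -0.39, -0.31 and 0.00 (-0.23 ± 0.21, adjusted p = 0.363).

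The other neuronal and glial members gave 0 calls. The means of hlh-13, hlh-15 and hlh-34 were -0.24, -0.38 and -0.32, and hlh-34 drew its mean from prep 1 (-1.03, -0.05 and 0.13). The Olig-type genes hlh-16 and hlh-17 stood at 0.32 ± 0.20 and -0.10 ± 0.10. Placed in no class here, hlh-10 and hlh-19 both stood at -0.23 and did not pass either. The neuronal vesicle and neuropeptide markers were lower for 6 of 7 genes on the same arrays, with list means of -1.46, -1.44 and -1.14 on preps 1, 2 and 3. Their part in the values of neuronal ceh and hlh genes was not tested.

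Several members lie beside each other in the genome (gene order of the RefSeq assembly WBcel235, protein-coding genes alone, at most 2 genes between). Of 11 such neighbouring pairs, 5 differed with the same sign on all 3 arrays. The share among other neighbouring genes was not computed, so this count is not a result about the members. The largest difference was between ceh-57 and ceh-58, adjacent genes with means of -0.66 and 0.42. On prep 1 ceh-58 was at 0.24, on prep 2 at 0.24 and on prep 3 at 0.79, and ceh-57 lay below it by 1.17, 0.75 and 1.30 (ceh-57 minus ceh-58, -1.08 ± 0.29, SD, n = 3). In an exact two-sided sign permutation test over the arrays p was 0.25, the smallest that 3 arrays allow, and 0.55 after Benjamini-Hochberg adjustment over the 11 pairs.

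In the ONECUT cluster ceh-41, ceh-21 and ceh-39 the means were 0.14, 0.47 and 0.65. The ratio of ceh-39 exceeded that of ceh-21 by 0.21, 0.17 and 0.17, and that of ceh-21 exceeded that of ceh-41 by 0.24, 0.60 and 0.14 on preps 1, 2 and 3, so the order was the same on each array. For both steps the exact permutation p was also 0.25. With 3 arrays any difference of shared sign gives this p, so it adds nothing to the shared order. All of these genes were highest on prep 1. The BarH genes ceh-30 and ceh-31, of which ceh-30 protects male CEM neurons from death, stood at 0.04 and -0.50, and most of that gap came from prep 1 (1.15, against 0.22 and 0.25).

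Neighbours with a difference that changed sign between arrays included ceh-36 and ceh-37 (Otx-type genes of sensory neurons; -1.36, 0.31 and 0.26), hlh-28 and hlh-29, and ceh-33 and ceh-34. For these pairs the data give no order. A clear gap on preps 1 and 2 separated ceh-82 and ceh-83 (0.60 and 0.90), and on prep 3 it was 0.03.

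**Figure D5:**
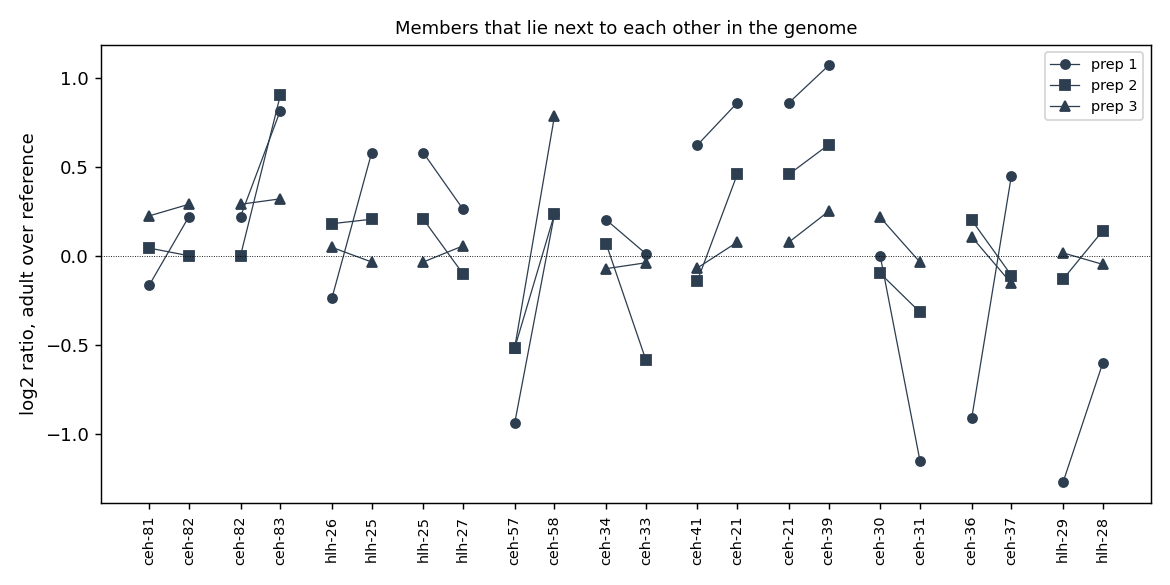
Log2 ratio of adult over reference (vertical axis) of neighbouring members on preps 1, 2 and 3, with a line joining both genes of a pair on the same prep. The lines from ceh-57 to ceh-58 rise on each prep, by 1.17, 0.75 and 1.30, while those of ceh-36 and ceh-37 cross.

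Homeobox and bHLH genes with other names were counted in lists of known family members (Hox cluster genes left out). Of 31 other homeobox genes measured, 2 were higher and 3 lower, or 16.1% past the threshold, close to the 16.7% of the ceh genes. Of 14 other bHLH genes, 2 were higher and 3 lower, or 35.7%, beside the 33.9% of all genes. The mean of the first list was -0.09 ± 0.09 and of the second -0.17 ± 0.12.

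Among the homeobox genes the higher ones were pal-1, the caudal gene supplied by the mother to the embryo (1.00, 0.32 and 0.97; mean 0.76 ± 0.39, adjusted p = 0.0113), and tab-1 (0.53 ± 0.21, adjusted p = 0.0397). The lower ones were mec-3, unc-86 and lin-11. The touch neuron gene mec-3 stood at -0.72 ± 0.49 (adjusted p = 0.0205), the POU gene unc-86, also a neuronal selector, at -0.65 ± 0.16 (adjusted p = 0.0145) and lin-11 at -0.58 ± 0.14 (adjusted p = 0.0247). The list was not split by cell type, and 26 of its 31 measured genes did not pass. No trend of neuronal homeobox genes is therefore read from these calls. Each of these 5 calls was lost with at least 1 prep left out: pal-1 without prep 3 (0.66, adjusted p = 0.074), mec-3 without prep 1 or 2 (adjusted p = 0.0587 and 0.183), and tab-1 (0.0872 and 0.33), unc-86 (0.0554 and 0.0527) and lin-11 (0.0709 and 0.128) without prep 2 or 3.

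Among the other bHLH genes mxl-3, a Max-like gene, was 1.72 log2 units lower in the adults than in the reference, with ratios of -1.21, -2.38 and -1.56 (mean -1.72 ± 0.60, adjusted p = 0.000266). As in hlh-11, prep 2 was its lowest array. The hypoxia factor gene hif-1 (-0.74 ± 0.28, adjusted p = 0.01) and the Mondo-type gene mml-1 (-0.55 ± 0.19, adjusted p = 0.0322) were also lower. The higher ones were hnd-1, a Hand relative of the embryonic mesoderm and gonad precursors (0.64 ± 0.42, adjusted p = 0.0302), and mxl-2, the partner of mml-1 (0.52 ± 0.21, adjusted p = 0.0439).

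The call of mxl-3 stood with any prep left out. Those of hif-1 without prep 2 (adjusted p = 0.0509), mml-1 without preps 2 or 3 (0.207 and 0.181), hnd-1 without preps 1 or 2 (0.108 and 0.0549) and mxl-2 without preps 1, 2 or 3 (0.0785, 0.0716 and 0.276) were lost. The genes mml-1 and mxl-2, whose proteins dimerise, had ratios of opposite sign, at -0.35, -0.71 and -0.60 against 0.62, 0.28 and 0.66.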

How the data were processed

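RNA of 3 adult preps was compared with a mixed reference on 2-colour arrays. The authors deposited 1 column of log2 ratios per array for 20000 probes, with no account of their normalization in the sources used here. Log base was settled from the values: as log2, 100% of ratios under 3 are multiples of 0.001 within 0.00005. Probe genes came from the platform annotation (15655 probes with 1 gene, 198 with several and not named, 4147 unnamed). Updating symbols through RefSeq (WBcel235; 15569 probes matched on gene ID and 7 on accession) did not alter the members.

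Arrays were centred on their medians over the 19710 probes present on 3 arrays, and the mean was tested against 0 with limma 3.58.1 in R 4.3.3 (intercept, two-sided, Benjamini-Hochberg over all probes, 0.05). A gene passed if 1 of its probes did. Degrees of freedom were 2 residual and 8.957 prior, and the median SE was 0.182. The fit was tested on simulated normal data, drawn from its own variance prior with equal spread on each array. Spread differed among the real arrays, so that test checks the computation alone. Every member past the threshold is named, as are the highest and lowest, the 3 nearest to it and members of described classes; of other list genes, the 3 highest and lowest past it. The members and lists were chosen with earlier results of these data known. Alternatives were no centring, scaling, quantile normalization, 2 of 3 arrays, 1 row per gene, a trended robust variance, each prep left out, updated symbols and all probes required to pass. No sequences are shown, and no batch was fitted, since each prep has 1 array.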

Additional observations from a re-analysis of the deposited data

How the results depend on the processing

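The number of all probes past the threshold stayed within 1.5 times under every alternative, from 5017 probes without prep 2 to 7474 after quantile normalization, against 6302. Between 9 and 11 ceh genes and 3 or 4 hlh genes passed when all preps were kept. With 1 prep left out, 3 to 7 ceh genes passed (1 to 3 higher, 2 to 4 lower), and 1 to 2 hlh genes (0 to 1 higher and 1 lower). Over all probes 5017 to 5368 passed in these fits. Of the other homeobox genes 0 to 3 were then higher and 0 to 2 lower, and of the other bHLH genes 0 to 1 higher and 1 to 4 lower. After quantile normalization 5 other bHLH genes were lower, against 3; the cause was not tested. Fits without a prep rest on 2 arrays. Of 280 repeats for single named genes, 34 lost a call, 6 gained one and 0 changed sign. The ceh mean ranged from -0.0403 to 0.0169 and the hlh mean from -0.1212 to -0.0422, and with all members kept the hlh mean stayed below the ceh mean (difference -0.0809 to -0.0591). This rested on hlh-11: in checks chosen after seeing the data the difference was 0.0125 without hlh-11 and -0.0144 without hlh-11 and ceh-18, and the difference of the medians was 0.03 on prep 3. Updated symbols and the stricter call rule changed no count. Each ratio already pairs adult and reference RNA on 1 array, and no further pairing was possible because the samples form 1 group. Spot intensity was not used here, so what weak signal limits is not known.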
